A study of Mus musculus with 2 samples.

Results

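Among the miRNA genes counted in mouse hippocampus were 10 whose products are best known from muscle, liver and endocrine tissue. They were taken by name, as the rows of the count tables whose Ensembl identifier carries the GENCODE M21 gene name Mir1a-1, Mir1a-2, Mir133a-1, Mir133a-2, Mir133b, Mir206, Mir208a, Mir208b, Mir122 or Mir375, and are 10 of 2202 miRNA genes in the tables. The study measured small RNA (size range under 30 nucleotides) of total RNA from hippocampus. The labels give the tissue type as layer of hippocampus. The animals were females of B6CASTF1/J, a first-generation cross of the C57BL/6J and CAST/EiJ strains, aged 36 days, and no treatment, mutant or second tissue was included. There were 2 libraries, biological replicates 1 and 2 of a single group. The labels give the libraries separate biosample entries and the same donor entry, which leaves it unclear whether 2 animals were sampled. The SDs below may then hold no variation between animals, and how much of them is technical is not known.

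MicroRNAs are short RNAs cut from hairpin transcripts that repress messenger RNAs by base pairing, chiefly through the seed near their 5′ end. The miR-1 and miR-206 miRNAs share a seed and are the classic miRNAs of heart and skeletal muscle, transcribed together with miR-133 from paired loci. The miR-208 miRNAs come from introns of the cardiac myosin heavy chain genes, miR-122 is the dominant miRNA of hepatocytes, and miR-375 is enriched in pancreatic islets and other endocrine cells. In bulk brain tissue their reads can come from brain cells or from RNA of other tissues, and these sources cannot be told apart here. A level measured here also cannot tell few cells with much of a miRNA from many cells with little of it.

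The mature arms are shown first because copies of a sequence bear on which genes can receive reads. RefSeq sequences (GRCm38.p6) of a mature arm are shown for 6 of the 10 genes. No 3p arm of miR-1a or miR-375 and no arm of miR-122 or miR-133a is shown. In each line below the capitals mark the seed, bases 2 to 8, and the sequence runs 5′ to 3′. The miR-206 arms lie on the plus strand at chr1:20679017-20679039 and chr1:20679055-20679076, and the miR-133b arms on the plus strand at chr1:20682797-20682818 and chr1:20682834-20682855. The miR-1a-1 arm lies at chr2:180389057-180389079 on the plus strand, and the 3p arms of miR-208a and miR-208b lie on the minus strand at chr14:54949072-54949093 and chr14:54975710-54975731. The miR-375-5p arm lies at chr1:74900696-74900717 on the minus strand.
miR-206-3p: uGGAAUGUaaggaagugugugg
miR-206-5p: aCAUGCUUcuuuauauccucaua
miR-1a-1-5p: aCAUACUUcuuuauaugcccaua
miR-133b-3p: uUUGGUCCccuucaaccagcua
miR-133b-5p: gCUGGUCAaacggaaccaaguc
miR-208a-3p: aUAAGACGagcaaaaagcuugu
miR-208b-3p: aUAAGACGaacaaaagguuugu
miR-375-5p: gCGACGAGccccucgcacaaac
The 3p arms of miR-208a and miR-208b share the seed and differ at 3 of 22 positions, counted from 1 at the 5′ end with the miR-208a base first (G10A, A16G and C18U). The 5p arms of miR-206 and miR-1a-1 differ at 3 of 23 positions, with the miR-206 base first (G5A, C17G and U19C), of which the first falls in the seed. The seed named above as common to miR-1 and miR-206 is thus not that of these 5p arms. The seed of miR-206-3p also occurs in the RefSeq mature sequences of Mir6349 and Mir6382, and the seed shared by the 5p arms of Mir208a and Mir208b in that of Mir6415. These 3 genes had 0 reads in both libraries.

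Of 10 genes, 3 were detected, namely Mir375, Mir206 and Mir122, where detection means at least 10 sense reads in each library. Over all annotated miRNA genes 17.1% met this minimum (376 of 2202). Of the others, 3 had between 1 and 9 reads over both libraries (Mir208b, Mir1a-2 and Mir208a) and 4 had no read in either (Mir1a-1, Mir133a-1, Mir133a-2 and Mir133b). The 10 genes together held 1163 reads in replicate 1 and 2126 in replicate 2, which is 397 and 583 counts per 1000000 sense reads on miRNA genes (CPM), or 490 ± 132 CPM (mean ± SD, n = 2, the form of all such values here). This is 0.0397% of assigned reads in replicate 1 (exact 95% interval of the level 375 to 421 CPM) and 0.0583% in replicate 2 (559 to 609 CPM). The intervals are exact Clopper-Pearson intervals and cover counting error only. Mir375, Mir206 and Mir122 accounted for 99.5% and 99.6% of these reads in replicates 1 and 2.

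Sense reads on miRNA genes numbered 2928141 in replicate 1 and 3644157 in replicate 2. Where a gene had no read, the limit used was 3 counts, equal to 1.02 CPM in replicate 1 and 0.823 CPM in replicate 2, and it holds for reads with a single place. Reads with several equally good places, 1.28 and 1.32 per assigned read, were set apart in the deposited tables and belong to no gene. A list of 14 neuronal miRNA genes was chosen with earlier results of these data known, so it is no check of the tissue label. Of its genes 11 were detected, beside 17.1% of all annotated miRNA genes. The list summed to 28189 CPM in replicate 1 and 37843 CPM in replicate 2. The members not detected were Mir124a-1, Mir124a-2 and Mir124a-3, with at most 8 reads in a library. Shared stretches were not searched for these genes, and reads with several places are missing from their counts. The low counts thus do not show that miR-124 was absent from the tissue.

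**Figure D1:**
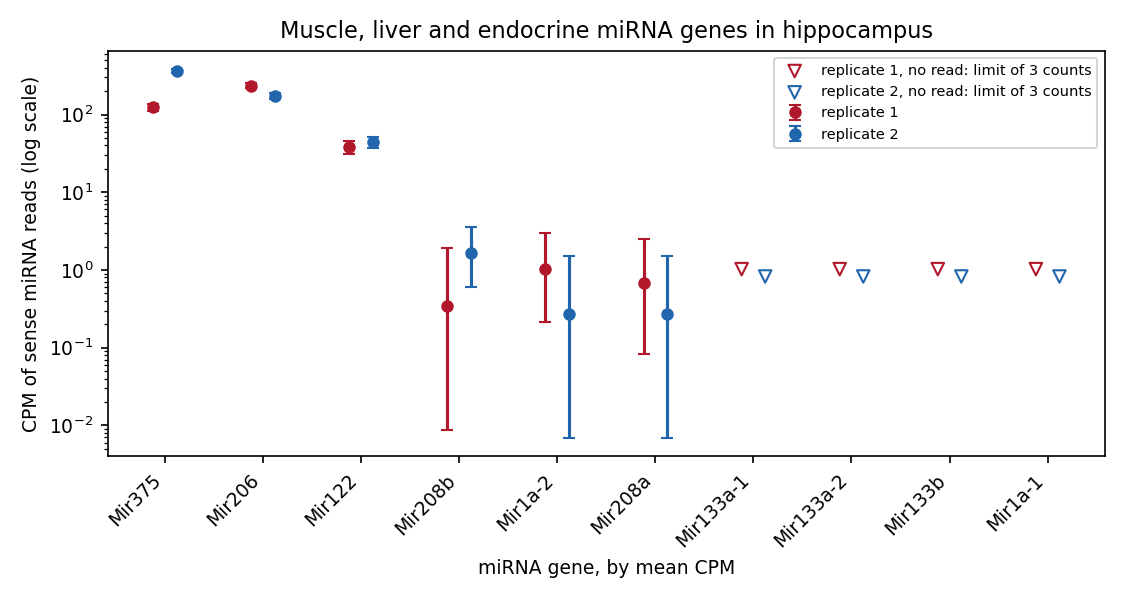
CPM of the 10 miRNA genes (log scale) in replicate 1 (red) and replicate 2 (blue), ordered by mean, with exact 95% counting intervals; open triangles stand at the limit of 3 counts for genes with no read. Mir375, Mir206 and Mir122 lie between 37.9 and 364 CPM, and the other genes have point values of at most 1.65 CPM.

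Mir206, the muscle miRNA with the same seed as miR-1, was detected, and the other 7 of the 8 muscle genes were not. It had 685 reads in replicate 1 and 633 in replicate 2, or 234 CPM (exact 95% interval 217 to 252) and 174 CPM (160 to 188). The level was higher in replicate 1, and the counting intervals of the 2 libraries did not overlap. Its mean was 204 ± 42.6 CPM, rank 171 among the 723 miRNA genes with a read. The annotated hairpin of Mir206 (ENSMUSG00000065559.1; mm10 chromosome 1, 20679010 to 20679082, plus strand) falls in an exon of the long noncoding gene Gm28653. The genes next to it in mean level were Mir339 at 214 ± 54.9 CPM and Mir380 at 196 ± 87.9 CPM, and the values of both overlapped its own between the libraries.

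Mir133b, the partner of Mir206 in the same noncoding gene, had 0 reads in both libraries. It lies 3687 bases downstream on the same strand (chromosome 1 from 20682769 to 20682887, ENSMUSG00000065480.1), also in an exon of Gm28653. With Mir133b set to 3 counts per library, Mir206 had at least 228-fold more reads in replicate 1 and at least 211-fold more in replicate 2. The genes are not countable alike. The first miR-133b arm shown, miR-133b-3p, shares a run of 21 of its 22 bases, positions 1 to 21, with the hairpin of Mir133a-2, whereas no run longer than 9 bases of miR-133b-5p occurs in another annotated miRNA hairpin. Reads of the 3p arm that end before its last base would thus have several places and be set apart. The corresponding runs of the miR-206 arms were 12 bases for 3p and 11 for 5p.

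The 4 genes of miR-1a and miR-133a had few or no reads, and each has a near copy among them. Mir1a-1 (ENSMUSG00000070144.1, chromosome 2 from 180389048 to 180389124) and Mir133a-2 (ENSMUSG00000065460.1, 180398379 to 180398482) lie 9255 bases apart on the plus strand. Both fall inside Mir1a-1hg in the RefSeq annotation, while GENCODE M21 places no gene over them, and both had 0 reads in each library. Mir133a-1 (ENSMUSG00000065399.2, chromosome 18 from 10782909 to 10782976, minus strand) had 0 reads as well. It lies 2505 bases from Mir1a-2 (ENSMUSG00000106348.1, 10785481 to 10785552), and both are in introns of Mir133a-1hg on their own strand and of Mib1 on the opposite strand.

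Mir1a-2 was the only one of these 4 with a sense read, with 3 reads in replicate 1 and 1 in replicate 2 (0.649 ± 0.530 CPM). Mir1b, annotated on the opposite strand over the same bases, had 5 and 6 reads in replicates 1 and 2. Counted without strand, reads at this place belong to neither gene, and both were listed at 0. The longest stretch that Mir1a-1 and Mir1a-2 share is 28 bases, and that of Mir133a-1 and Mir133a-2 is 31 bases, each longer than a mature miRNA. A read that fits both copies was set apart, so a low count of these 4 genes does not show absence from the tissue. The shared run of Mir1a-1 and Mir1a-2 lies in the 3p part of the hairpin, and no run longer than 14 bases of the miR-1a-1-5p arm shown above occurs in another annotated miRNA hairpin.

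Mir208a and Mir208b, whose miRNAs regulate myosin genes in heart, also had few reads, but their sequences are not shared in this way. Mir208a (ENSMUSG00000065432.1, chromosome 14 from 54949060 to 54949142, in an intron of Myh6) had 2 reads in replicate 1 and 1 in replicate 2. Mir208b (ENSMUSG00000077928.1, chromosome 14 from 54975700 to 54975776, in an intron of Myh7) had 1 and 6 reads. Both are on the minus strand of their host genes. No stretch longer than 12 bases of the Mir208a hairpin, or 11 of the Mir208b hairpin, occurs in another annotated miRNA hairpin. Their means were 0.479 ± 0.289 CPM and 0.994 ± 0.923 CPM. The upper bounds of the exact 95% intervals were 2.47 and 1.53 CPM for Mir208a and 1.90 and 3.58 CPM for Mir208b, in replicates 1 and 2. Both were under the minimum of 10 summed reads for the test between libraries described below. With no such minimum, the test called neither (exact binomial test, adjusted p = 0.747 for Mir208a and 0.266 for Mir208b), at ratios of replicate 1 to replicate 2 whose intervals ran from 0.130 to 147 and from 0.00451 to 1.71.

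**Figure D2:**
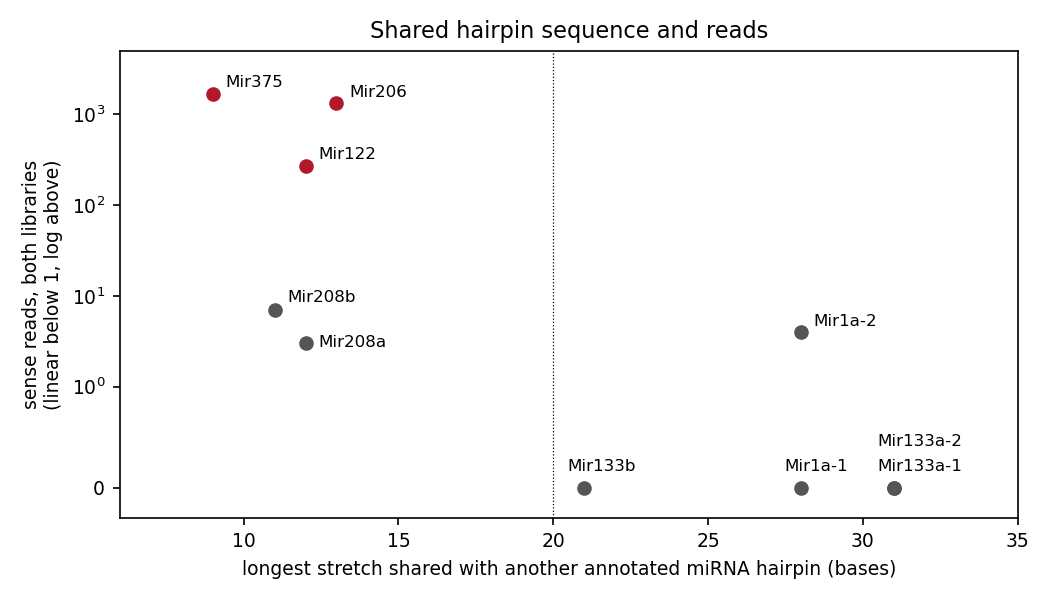
Sense reads summed over both libraries (linear below 1, log above) against the longest stretch of bases that each hairpin shares with another annotated miRNA hairpin; red points are detected genes, grey points are not, and the dotted line stands at 20 bases. The 5 genes past the line had at most 4 reads, while the 5 genes before it ranged from 3 reads for Mir208a to 1686 for Mir375.

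Sequence sharing and reads are set side by side here for the 10 genes. A stretch of at least 20 bases is shared with another annotated miRNA gene by 5 members (Mir1a-1, Mir1a-2, Mir133a-1, Mir133a-2 and Mir133b), and 0 of these were detected. Of the 5 members that share no such stretch, 3 were detected, and Mir208a and Mir208b were not. Copies outside annotated hairpins were not searched. Over all annotated miRNA genes 17.1% were detected, so 0 of 5 does not set the sharing genes apart. That share was not worked out by sequence sharing. The counts describe 10 chosen genes, with no test.

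Mir122, the liver miRNA, had 111 reads in replicate 1 and 160 in replicate 2, or 37.9 CPM (exact 95% interval 31.2 to 45.7) and 43.9 CPM (37.4 to 51.3). The intervals of the 2 libraries overlapped, and the mean was 40.9 ± 4.24 CPM, rank 245. Its hairpin (ENSMUSG00000065402.1; chromosome 18, 65248861 to 65248926, plus strand) falls in an exon of the noncoding gene AC157910.3. Its longest stretch in another annotated miRNA hairpin is 12 bases. Its neighbours in level were Mir203 at 41.9 ± 17.7 CPM and Mir24-2 at 39.4 ± 0.265 CPM. Other miRNA genes of liver, gut and kidney had low counts too. Shared stretches were not searched for them, so reads with several places may be missing from these counts. Of 4 such genes, Mir194-2 (20.8 and 16.7 CPM) and Mir192 (3.76 and 12.1 CPM) were detected, beside 17.1% of all annotated miRNA genes. Mir215 had 1 and 2 reads, and Mir194-1 had 0 reads in both libraries. In the test between libraries described below, Mir192 was called lower in replicate 1 (ratio 0.311, exact binomial test, adjusted p = 4.82e-04), beside 31.6% of all genes tested. Mir194-2 was not called (ratio 1.24, exact binomial test, adjusted p = 0.315).

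Mir375, the islet and endocrine miRNA, had the highest mean of the 10 genes and the widest spread of the detected 3. It had 361 reads in replicate 1 and 1325 in replicate 2, or 123 CPM (exact 95% interval 111 to 137) and 364 CPM (344 to 384), with a mean of 243 ± 170 CPM at rank 165. Mir375 made up 31.0% of the reads of the 10 genes in replicate 1 and 62.3% in replicate 2, while Mir206 made up 58.9% and 29.8%. The leading gene was thus Mir206 in replicate 1 and Mir375 in replicate 2. Its hairpin (ENSMUSG00000065616.3; chromosome 1, 74900658 to 74900721, minus strand) overlaps no other annotated gene and shares no stretch longer than 9 bases with another miRNA hairpin. Next to it in mean level stood Mirlet7a-2 at 249 ± 0.191 CPM and Mir7-2 at 242 ± 23.8 CPM, both inside the range of Mir375.

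**Figure D3:**
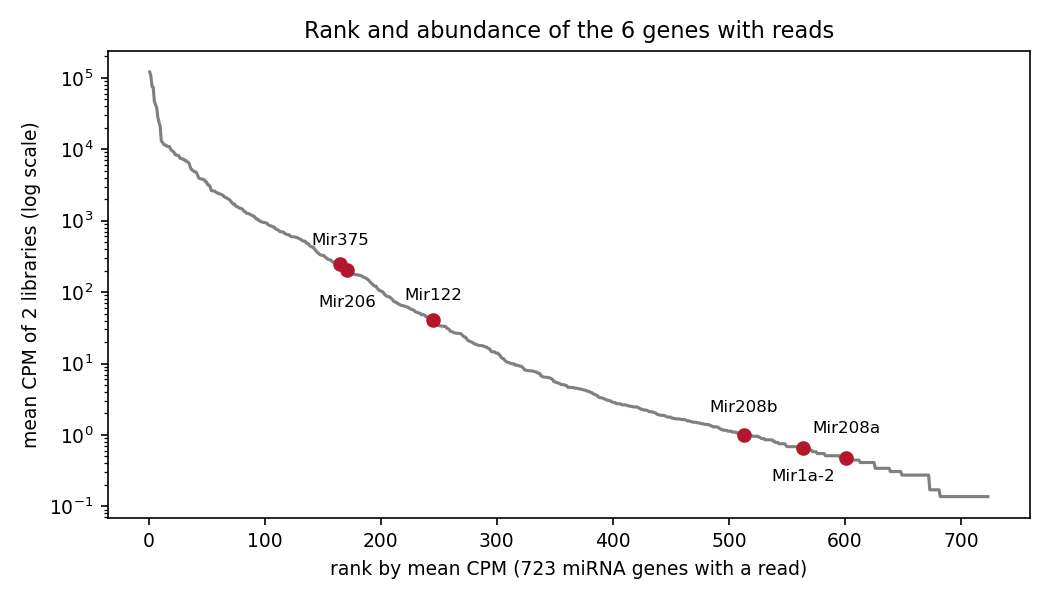
Mean CPM of 2 libraries (log scale) against rank for the 723 miRNA genes with a read (grey line), with the 6 genes of the set that had a read in red. Mir375, Mir206 and Mir122 stand at ranks 165, 171 and 245, and Mir208b, Mir1a-2 and Mir208a near 1 CPM or below.

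In the order of mean levels, Mir375 and Mir206 did not differ beyond their spread, since their values over the libraries overlapped. In reads, Mir375 stood at 0.527 times the level of Mir206 in replicate 1 and at 2.09 times in replicate 2. Mir206 and Mir122 lay apart, with Mir206 6.17-fold higher in replicate 1 and 3.96-fold higher in replicate 2 in reads. Mir122 in turn lay apart from Mir208b, while Mir208b overlapped Mir1a-2 and Mir1a-2 overlapped Mir208a. The remaining 4 genes, with no read, stood last. Dividing by hairpin length left the order of the 6 genes with reads as it was.

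The libraries were set against each other with a two-sided exact binomial test of each gene's reads, given the library totals, with Benjamini-Hochberg adjustment over all 474 genes with at least 10 reads in sum. The test compares these 2 libraries, not conditions, takes counting as the only error, and has no replicate behind either side. It called 275 genes, 58.0% of those tested, and 2 of the 3 members tested. The share over all genes is thus so high that 2 calls among 3 members do not set them apart. By direction, 26.4% of all genes were called higher in replicate 1 and 31.6% lower, and among the members Mir206 was called higher and Mir375 lower. The median ratio of replicate 1 to replicate 2 was 0.863 over the 3 members and 0.975 over all genes tested.

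Mir375 had a ratio of replicate 1 to replicate 2 of 0.339 (exact 95% interval 0.301 to 0.381; adjusted p = 1.1e-86), a 2.95-fold lower level in replicate 1. Of 295 genes with at least 100 reads in sum, 17 (5.76%) differed between the libraries by a larger fold in either direction. Mir206 had a ratio of 1.35 (1.21 to 1.503; exact binomial test, adjusted p = 2.26e-07), and 127 of these 295 genes (43.1%) differed by more. The median of the 295 was 1.27-fold, so the difference of Mir206 was of ordinary size for this pair of libraries. Mir122 had a ratio of 0.863 (0.672 to 1.11; exact binomial test, adjusted p = 0.325), which was not called, and its interval includes changes of up to 1.49-fold in favour of replicate 2.

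**Figure D4:**
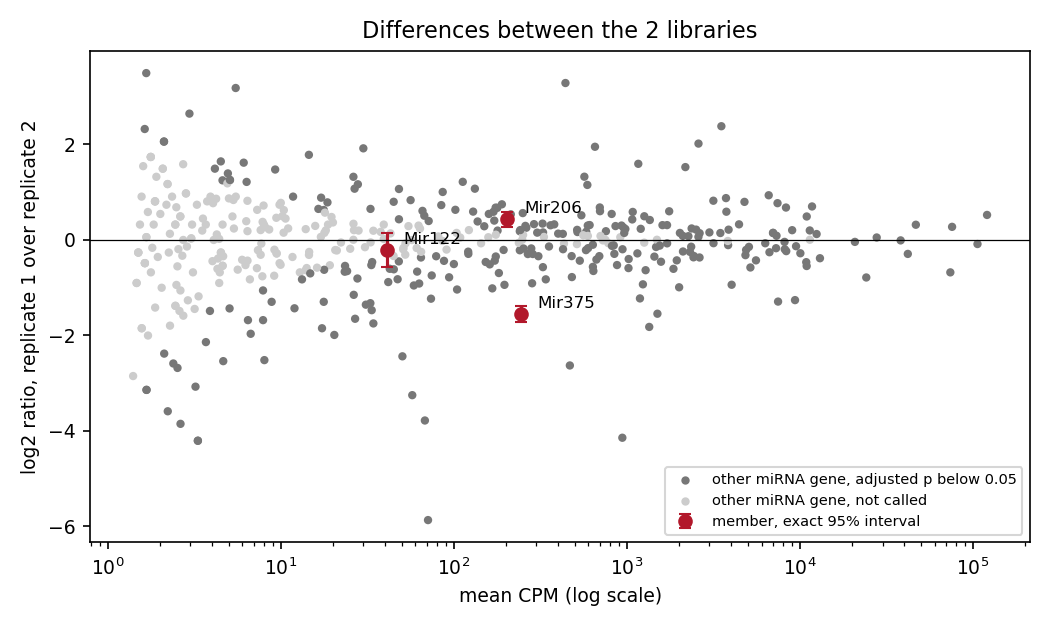
Log2 ratio of replicate 1 over replicate 2 against mean CPM (log scale) for tested miRNA genes with a read in both libraries; dark grey points were called, light grey points were not, and red points with exact 95% intervals are Mir375, Mir206 and Mir122. Mir375 lies at -1.56, below most genes of its level, Mir206 at 0.43 and Mir122 at -0.21.

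Marker lists of other cell types also differed between the libraries, some in the direction of Mir375. Over all genes tested, 31.6% were called lower in replicate 1 and 26.4% higher, and 17.1% of annotated miRNA genes were detected. The list counts stand beside these shares and were not tested as sets. The epithelial and sensory list (10 genes of the miR-200 and miR-183 groups, Mir203 and Mir205, known from epithelia and sensory cells) summed to 89.8 CPM in replicate 1 and 422 CPM in replicate 2. Of its 9 tested genes, 6 were called lower in replicate 1 and 0 higher, and 5 of 10 were detected. Mir96 was at 0 reads in replicate 1 and 5 in replicate 2, and no other gene of the list was at 0 in either library. Mir182 and Mir183 alone had 7 and 27 reads in replicate 1, against 509 and 463 in replicate 2. The choroid plexus and ciliated cell list summed to 1147 and 2661 CPM in replicates 1 and 2, with 2 of 4 tested genes called lower in replicate 1 and 1 higher. Mir204 alone carried that difference, with 593 and 2101 CPM, and the other 6 genes summed to 555 CPM in replicate 1 and 560 CPM in replicate 2. Of the 7 genes 4 were detected, Mir449b was at 0 in both libraries and Mir449c at 0 in replicate 2. The neuron list had 9 of 12 tested genes called lower in replicate 1 and 1 higher. The part of these cell types in the level of Mir375 was not tested.

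Other endocrine and islet miRNAs did not share the direction of Mir375 as a list. The 7 genes summed to 4108 CPM in replicate 1 and 3656 CPM in replicate 2, nearly all of it from Mir7b (3635 and 3302 CPM), a miRNA also made by neurons. Reads with several places may be missing from these counts, as shared stretches were not searched for the 7 genes. Of 6 tested genes, 4 were called higher in replicate 1 (Mir7-1, Mir7-2, Mir7b and Mir216a) and 1 lower (Mir184). The shares over all genes tested were 26.4% higher and 31.6% lower. The pancreatic miRNA genes Mir216a, Mir216b and Mir217 were at counts of 10, 0 and 9 in replicate 1, against 3, 2 and 5 for the same genes in replicate 2.

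The summed levels of the blood, other muscle and vascular lists were also higher in replicate 1, like Mir206, the vascular sum through Mir126a alone. The share called higher in replicate 1 over all genes tested was 26.4%, and 31.6% were called lower. The red blood cell list, 3 of whose 4 genes are in the tables, summed to 1176 CPM in replicate 1 and 340 CPM in replicate 2, and all 3 (Mir451a, Mir144 and Mir486) were detected and called higher in replicate 1. Mir486, which muscle also makes, had 65 and 44 reads. Mir499, the miRNA of a further myosin gene, had 32 reads in replicate 1 and 29 in replicate 2 (ratio 1.37, exact binomial test, adjusted p = 0.325). With Mir1b, these 2 genes form the other muscle miRNAs in the tables, which summed to 34.8 and 21.7 CPM, with 1 of 3 called higher in replicate 1 and 0 lower. The called gene was Mir486, which is also on the red blood cell list. Without Mir486 the other muscle list summed to 12.6 CPM in replicate 1 and 9.60 CPM in replicate 2. The vascular list of 3 genes summed to 19436 and 15579 CPM, where Mir126a was called higher in replicate 1 and Mir143 and Mir145a lower. Without Mir126a the list summed to 4920 CPM in replicate 1 and 6610 CPM in replicate 2, the opposite direction. The part of blood, muscle or vessels in the level of Mir206 was not tested. The 7 muscle genes other than Mir206 held 6 reads in replicate 1 and 8 in replicate 2.

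**Figure D5:**
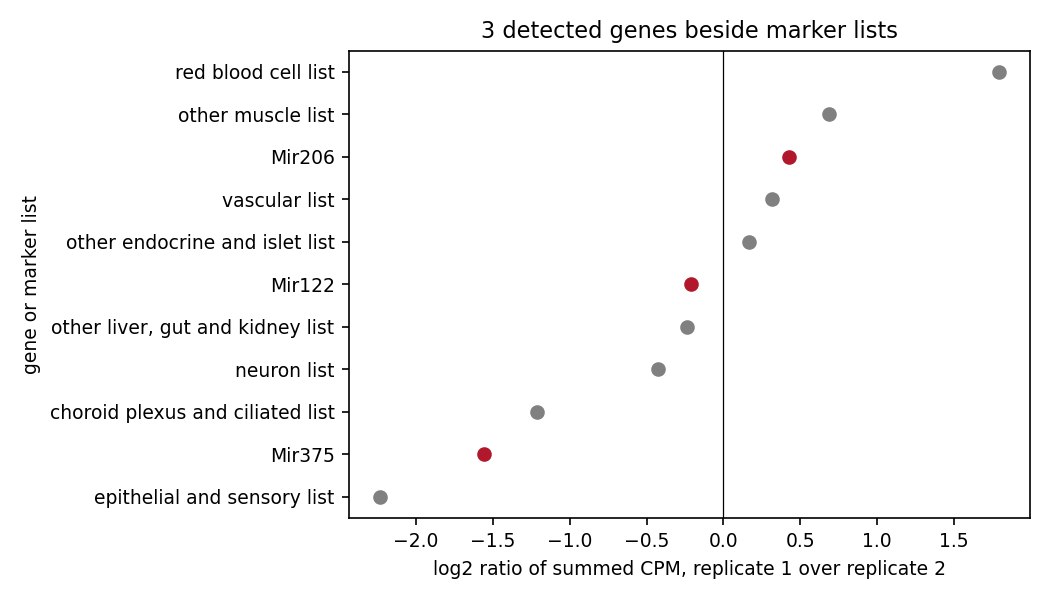
Log2 ratio of replicate 1 over replicate 2 for Mir375, Mir206 and Mir122 (red) and for the summed CPM of 8 marker lists (grey), from the highest ratio at the top to the lowest. Mir375 stands between the choroid plexus and epithelial lists, Mir206 between the other muscle and vascular lists, and Mir122 beside the list of liver, gut and kidney. Of the latter list, Mir192 was lower in replicate 1 and Mir194-2 higher.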

How the data were processed

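Members and lists were chosen with earlier results of these data known. The deposited tables give whole-number counts of reads per miRNA gene, not normalized by the authors, in 3 unnamed columns per library. They were read as counts without strand, sense and antisense, the sense column being the stranded column with the larger total. The assembly mm10 and annotation M21 are named in the deposited notes, and the aligner was not given in the sources used here. A further 4 rows that name no gene took 69.5% and 65.3% of reads in replicates 1 and 2 and were left out.

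All 2202 identifiers matched GENCODE M21. CPM used the total of sense reads on miRNA genes. Hairpins from GENCODE were searched for shared stretches, and mature sequences came from RefSeq (GRCm38.p6). All 10 members are named, with miRNA genes within 10 kb, genes of the same seed, the next gene above and below each detected member in mean CPM, and listed marker genes. Mir486b of the marker lists is not in the tables under that name. With 1 group no condition was tested, and 2 libraries allow no exact test over samples.

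The binomial test was checked on simulated data for all 2202 genes with counting noise only. The changed genes were drawn only from those with at least 10 reads in sum. Of these the test recovered 74% changed by 1.5-fold, 76% by 2-fold, 86% by 4-fold and 100% by 8-fold. It called 2.86% of the unchanged genes that were tested. These rates need not hold for replicates that vary more. Software was numpy 2.4.6, scipy 1.17.1, pandas 2.3.3 and matplotlib 3.10.9 under Python 3.11.15. Alternatives used R 4.3.3 with edgeR 4.0.16 (TMM) and DESeq2 1.42.0 (size factors), other detection limits and filters, each replicate alone, counts without strand, and totals that omit the leading gene.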

Additional observations from a re-analysis of the deposited data

Results flagged for a closer look

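Antisense reads, which the comparisons do not use, were above the limit of 3 counts at a single gene of the 10, Mir1a-2, with 5 in replicate 1 and 6 in replicate 2. They equal the sense reads of Mir1b, annotated over the same bases on the opposite strand. The other 9 genes had 0 antisense reads in both libraries.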

How the results depend on the processing

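The 3 detected members stayed detected with at least 5 or 20 reads per library, with counts without strand and in either library alone. Mir375 and Mir206 were called in the same directions, and Mir122 was not called, under all 6 alternatives of the read test (other scaling, no strand, other filters), with ratios of 0.339 to 0.356, 1.35 to 1.41 and 0.863 to 0.906. Adjusted p of the exact binomial test ranged from 8.39e-79 down to 6.85e-87 for Mir375, from 3.44e-07 down to 1.29e-09 for Mir206, and from 0.277 to 0.556 for Mir122. The order of levels rested on the libraries: of the 6 genes with reads, the number at the same place as in the mean order was 1 to 6 when a replicate was left out. It was 1 without replicate 2, where Mir206 led, and 6 without replicate 1, where Mir1a-2 and Mir208a are tied at 1 read each and their places are arbitrary. Counts without strand put Mir1a-2, listed at 0 there, last of the 6. Totals without the most abundant gene put Mir122 at 46.5 CPM, outside its spread. No paired analysis was possible because there is 1 group. Over all genes, TMM scaling gave 133 higher and 135 lower in replicate 1, and totals without the most abundant gene 142 higher and 126 lower. With no filter on low counts, Mir208b, Mir1a-2 and Mir208a were tested as well and not called (exact binomial test, adjusted p from 0.266 to 0.747), with intervals too wide at counts of 6 or fewer to bound a ratio closely.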
